A study of Mus musculus with 4 samples.

Results

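Adding the STING agonist to the LTβR agonist was examined by setting the combination library against the LTβR agonist library of the same single-cell RNA-seq series. Both libraries held live CD45+ leukocytes sorted from subcutaneous KPC tumors, and both groups had received the LTβR agonist, so the STING agonist was the only labelled difference between them. Barcodes were taken with 300 to 5000 detected genes and at most 6% of unique molecular identifiers (UMIs, counts of captured RNA molecules) from mitochondrial genes. This gave 29739 of the 51841 cells kept in the series, with 14041 in the LTβR agonist library and 15698 in the combination library. No measured difference between the groups entered this choice.

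KPC cells come from a pancreatic tumor of genetically engineered mice and were grown under the skin of young adult male C57BL/6NHsd mice with intact immunity. The LTβR agonist group received the agonist antibody 4H8 against the lymphotoxin-β receptor by intraperitoneal injection. The combination group received the same antibody and ADU-S100, a cyclic dinucleotide STING agonist, injected into the tumor. Per the study's methods, ADU-S100 was given at the start of treatment only, and tumors were taken weeks later, after the last antibody dose. Tumors were pooled within each group before the sort, so each group was 1 library, no difference could be tested against a replicate, and variation between mice cannot be told apart from treatment. The study's methods describe 2 independent single-cell experiments, and the labels give 1 library per group without saying from which of them it came, so a repeat of these comparisons was not analysed here. The other libraries of the series, from untreated tumors and from tumors given ADU-S100 alone, held 22102 kept cells and gave a measurement of the STING agonist without the antibody.

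STING is a sensor protein of the endoplasmic reticulum that binds cyclic dinucleotides and activates the kinase TBK1, which drives type I interferon and NF-κB target genes. LTβR is a receptor of the TNF family on stromal, endothelial and myeloid cells that signals mainly through noncanonical NF-κB and is required for lymph nodes to form. In tumors, both pathways are studied for their part in building tertiary lymphoid structures, which are lymph node-like aggregates of B cells and T cells outside lymphoid organs. Tumor macrophages range from resident cells that clear debris to monocyte-derived cells that present antigen and recruit lymphocytes.

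The classes were cut from detected genes. The T class had at least 2 of Cd3d, Cd3e and Cd3g, the B and plasma class at least 2 of Cd79a, Cd79b, Ms4a1 and Mzb1, and the macrophage/monocyte class had Csf1r and neither Cd3e nor Cxcr2. The kept cells carried 68238086 and 50273004 UMIs. The libraries differed in depth, with a median of 3773 UMIs and 1776 genes per kept cell for the LTβR agonist and 2235 UMIs and 1207 genes for the combination. Mitochondrial RNA was similar, with a median of 1.25 and 1.33% of UMIs per cell. The labels of the classes were checked against their markers. Levels are given in CPM, the UMIs of a gene per 1000000 UMIs of the library or class. The summed level of 8 T markers in the T class was 3458 and 3457 CPM with the LTβR agonist and the combination, that of 10 macrophage/monocyte markers in the macrophage/monocyte class was 7760 and 8417, and that of 8 B and plasma markers in the B and plasma class was 27821 and 24944. The B and plasma class also carried macrophage/monocyte markers at 4010 and 4088 CPM, and 17.7 and 15.3% of its cells met the macrophage/monocyte rule too. The classes left 37.4 and 45.5% of kept cells unassigned, among them neutrophils, dendritic cells and natural killer (NK) cells. The 2 libraries shared 57 kept barcodes.

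T cells took a smaller share of the leukocytes when ADU-S100 had been added, and B and plasma cells a larger one. The T class held 1632 cells, or 11.6% (95% exact Clopper-Pearson interval 11.1 to 12.2%), in the LTβR agonist library and 1018 cells, or 6.48% (6.10 to 6.88%), in the combination library. The ratio of the shares was 0.558 (0.518 to 0.601). The B and plasma class held 424 cells, or 3.02% (2.74 to 3.32%), and 613 cells, or 3.90% (3.61 to 4.22%), a ratio of 1.29 (1.14 to 1.46). These intervals cover counting error only, since amplified reads were collapsed to UMIs but mice and libraries were not repeated. A class cut by detected genes depends on depth, so each cell was also thinned to 1000 UMIs, which left out 1263 LTβR agonist cells and 2942 combination cells. After thinning, the T class was 5.42 and 3.72% (ratio 0.687, 0.613 to 0.770) and the B and plasma class 1.48 and 2.17% (ratio 1.47, 1.22 to 1.76). Both shares kept their direction.

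Macrophages and monocytes made up nearly the same part of both libraries. They were 6841 cells, or 48.7% (47.9 to 49.6%), with the LTβR agonist and 7042 cells, or 44.9% (44.1 to 45.6%), with the combination, a ratio of 0.921 (0.899 to 0.943). At 1000 UMIs per cell the shares were 29.1 and 31.2% and the ratio was 1.07 (1.03 to 1.11), so no direction is read for this class. Without the LTβR agonist, ADU-S100 went with lower shares of all 3 classes. The ratio of ADU-S100 to untreated was 0.260 (0.235 to 0.287) for the T class, 0.446 (0.309 to 0.646) for the B and plasma class, from 62 and 51 cells, and 0.800 (0.775 to 0.826) for macrophages and monocytes. The B and plasma share thus stood higher with ADU-S100 in the presence of the LTβR agonist and lower in its absence, each between 1 library and another, and the difference could not be tested against replicates. After thinning, the ratio without the antibody was 0.597 (0.295 to 1.21), on 15 and 16 cells.

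**Figure D1:**
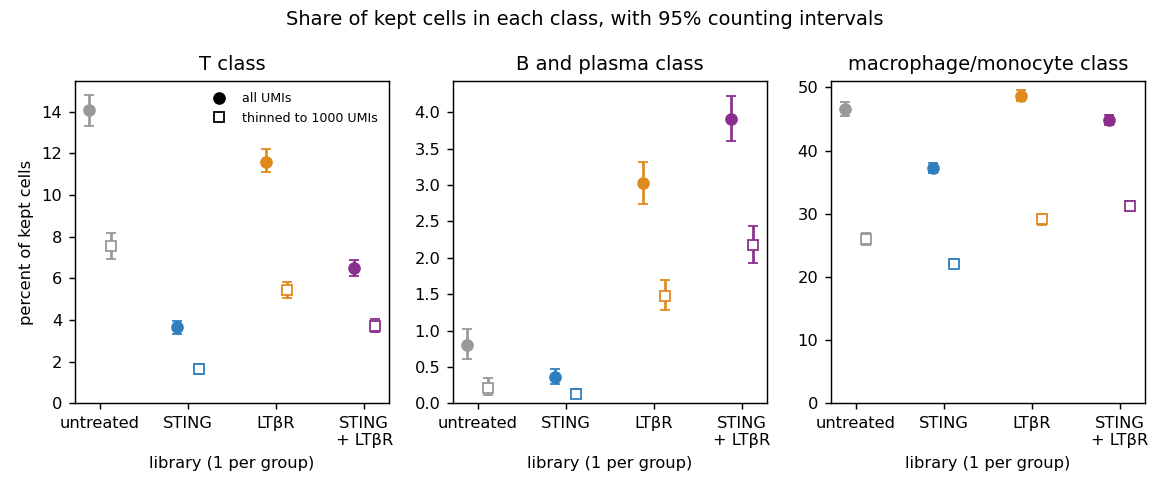
Share of kept cells (percent, vertical axis) in the T, B and plasma, and macrophage/monocyte classes for the 4 libraries, 1 library per group, with filled points for all UMIs, open squares for cells thinned to 1000 UMIs, and bars for the 95% counting interval. The T share is 11.6% with the LTβR agonist and 6.48% with the combination, the B and plasma share is 3.02 and 3.90%, and the macrophage/monocyte shares cross when cells are thinned.

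Gene levels were compared in CPM, summed over the cells of a library or class, with immunoglobulin genes left out of the total. A gene was called where it differed at least 2-fold and had at least 200 UMIs over both libraries. Over all cells, 19 of 12285 genes (0.155%) were at least 2-fold higher with the combination and 69 (0.562%) at least 2-fold lower. The median log2 ratio of all tested genes was -0.05, and 5% of genes lay below -0.40 and 5% above 0.31. ADU-S100 against untreated gave 517 genes higher (4.24%) and 954 lower (7.83%) of 12182.

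**Figure D2:**
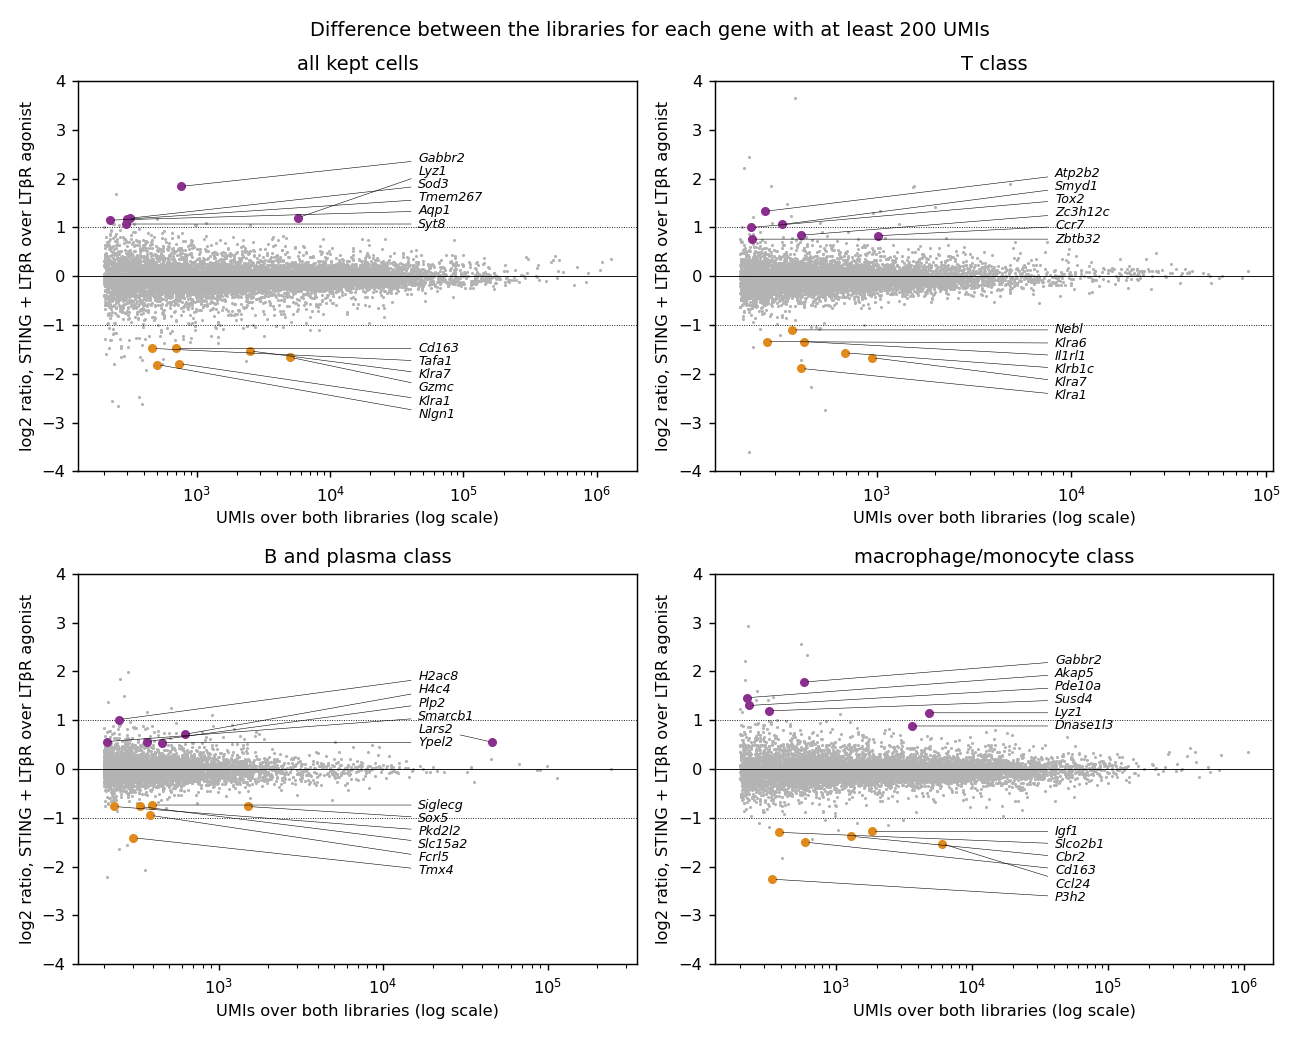
Log2 ratio of CPM, combination over LTβR agonist (vertical axis), against UMIs over both libraries (horizontal axis, log scale) for each gene with at least 200 UMIs, in all kept cells and in each class; dotted lines mark 2-fold, and colored points are the first 6 reported genes in each direction. Most genes lie close to 0, with Gabbr2 (1.84) and Nlgn1 (-1.81) at the ends of the named genes over all cells.

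Of the 10 genes named as lowest in the combination over all cells, 3 are genes of NK cells and cytotoxic lymphocytes, Klra1, Klra7 and Gzmc. Klra1 and Klra7 encode Ly49 receptors for MHC class I on NK cells and some T cells. Klra1 was at 9.18 CPM with the LTβR agonist and 2.65 with the combination (log2 ratio -1.79, 95% counting interval -2.08 to -1.52), and Klra7 had 1990 and 502 UMIs (-1.53, -1.67 to -1.39). Of 20 NK receptor genes, a group put together after values were seen, 8 were at least 2-fold lower, none was 2-fold higher and 1 lay above 0 (Klrb1b, 0.25), with a median of -0.89. Ncr1, the activating receptor NKp46, was at 16.5 and 8.23 CPM. NK markers summed over 5 genes were at 147 and 76.6 CPM, and T markers over 8 genes at 466 and 318. In sums over all cells, fewer cells of a type and less RNA per cell cannot be told apart.

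Granzymes are proteases that cytotoxic cells deliver into their targets with perforin. Of 8 tested granzyme and perforin genes, also put together after values were seen, 4 were at least 2-fold lower and 1 lay above 0 (Gzmf, at 5.73 and 6.97 CPM, 0.28, 0.06 to 0.50), with a median of -0.97. Gzmc was at 61.0 CPM with the LTβR agonist and 19.3 with the combination (-1.66, -1.76 to -1.56), and Gzmb at 92.3 and 42.7 (-1.11, -1.18 to -1.04). The rest of the 4, Gzmd (-1.92) and Gzme (-1.28), had a UMI in 0.0701 and 0.127% of combination cells. In that library 1 cell held 47.8% of the Gzmd UMIs, and 1 cell held 24.6% of the Gzme UMIs. Gzma stood at 113 and 75.2 CPM (-0.59) and Prf1, the pore-forming perforin, at 81.1 and 53.3 (-0.61). All 18 genes of the cytotoxic and effector list lay below 0, 3 of them at least 2-fold, with a median of -0.61 against -0.05 over all tested genes. The Th2 and IL-17 list had 3 of 10 tested genes at least 2-fold lower and a median of -0.94. Both lists moved with the smaller T class share and the lower NK markers, and their part in these values was not tested.

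Genes that were higher over all cells were mostly at low levels. Gabbr2, a subunit of the GABA-B receptor, was at 3.16 CPM with the LTβR agonist and 11.3 with the combination (log2 ratio 1.84, 1.61 to 2.08), and a UMI of it was found in 0.983 and 2.10% of cells. Lyz1, a lysozyme gene, was at 32.3 and 74.5 (1.20, 1.13 to 1.28). The other 8 genes named as highest lay between 1.05 and 1.19. Among them, Sod3, Aqp1, Syt8, Cemip and Msln came down to 0.64, 0.13, 0.31, 0.04 and 0.15 when all deposited barcodes were used. With cells thinned to equal UMIs, Sod3 and Syt8 were at 0.07 and 0.19, and with each cell given the same weight Sod3, Syt8 and Cemip were at 0.23, 0.58 and 0.55. Of the genes named as lowest, Nlgn1, a synaptic adhesion protein, was at 6.26 and 1.78 CPM (-1.81, -2.17 to -1.48). A UMI of it was found in 0.271 and 0.159% of cells, and 1 cell held 10.3 and 15.1% of its UMIs. Stfa1, a stefin of neutrophil precursors also named as lowest, was at 3.60 and 1.30 (-1.46). Without cells under 5% ribosomal protein UMIs, Stfa1 stood at -0.03.

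Within macrophages and monocytes, 18 of 10616 genes were at least 2-fold higher with the combination (0.170%) and 15 at least 2-fold lower (0.141%), around a median of -0.04. MHC class II genes, which encode the molecules that present antigen to CD4+ T cells, stood slightly higher as a group. All 10 members lay above 0, none of them by 2-fold, with a median of 0.25, and 5% of all tested genes in the class lay above 0.31. H2-Eb1, the β chain of the I-E molecule, was at 4952 CPM with the LTβR agonist and 6618 with the combination (0.42, 0.41 to 0.43). H2-Aa, the α chain of the I-A molecule, was at 5536 and 6988 (0.34, 0.33 to 0.34). Cd74, the invariant chain, was at 13482 and 17071 (0.34, 0.34 to 0.35). Ciita, the master regulator of these genes, differed less, at 218 and 242 (0.15, 0.10 to 0.19), and the intervals of H2-Oa and H2-Ob included 0. With ADU-S100 alone the same list had a median of -0.30 against untreated. The list was also higher in the T class. There all 7 tested members lay above 0, between 0.33 and 0.60, with a median of 0.48. That class carried macrophage/monocyte markers at 1984 and 2034 CPM and B and plasma markers at 156 and 418. In the macrophage/monocyte class, B and plasma markers, from another cell type rich in class II, stood at 288 and 380.3 CPM. The part of these other cells in the class II values was not tested.

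Class II promoters share short boxes whose binding proteins recruit CIITA, among them the Y box, an inverted CCAAT element. Of the 10 genes, 7 had an upstream sequence in RefSeq's mouse promoters, and 3 held the letters CTGATTGG of the Y box within 250 bases before the gene start. These letters were searched on both strands and were found in 1258 of 32851 promoters (3.83%), on the gene's own strand in 608 (1.85%). The 3 stretches are given 5′ to 3′ on the gene's strand, build GRCm38.p6, with the matching letters in capitals, to show where the shared letters lie in these 3 members of the list. H2-Oa is at chr17:34092129-34092378 on the plus strand, H2-Aa at chr17:34287824-34288073 on the minus strand and H2-Eb1 at chr17:34305617-34305866 on the plus strand. The match begins 46, 51 and 62 bases before the gene start.
H2-Oa: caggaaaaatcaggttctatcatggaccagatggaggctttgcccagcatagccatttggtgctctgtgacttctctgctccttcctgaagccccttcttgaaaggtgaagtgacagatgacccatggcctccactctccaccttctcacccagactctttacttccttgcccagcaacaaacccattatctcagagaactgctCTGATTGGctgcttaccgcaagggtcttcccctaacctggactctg
H2-Aa: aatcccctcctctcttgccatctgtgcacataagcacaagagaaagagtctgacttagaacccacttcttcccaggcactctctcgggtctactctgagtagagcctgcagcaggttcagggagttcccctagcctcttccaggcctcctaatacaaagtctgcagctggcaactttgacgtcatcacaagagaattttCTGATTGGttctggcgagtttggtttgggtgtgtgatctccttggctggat
H2-Eb1: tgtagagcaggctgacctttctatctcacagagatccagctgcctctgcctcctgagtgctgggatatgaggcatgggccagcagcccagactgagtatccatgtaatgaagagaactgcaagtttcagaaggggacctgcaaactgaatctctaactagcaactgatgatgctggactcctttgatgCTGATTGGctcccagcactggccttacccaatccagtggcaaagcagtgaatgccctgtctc
The match is a description of these letters, not of binding. H2-Eb1 and H2-Aa had the first and a shared second place among the 10 ratios (0.42 and 0.34), whereas H2-Oa, with the same letters, was at 0.10 (-0.08 to 0.28).

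Of the 10 genes named as lowest in macrophages and monocytes, 7 were counted here among genes of tissue-resident or alternatively activated macrophages. Cd163, the scavenger receptor for hemoglobin, was at 11.5 CPM with the LTβR agonist and 4.06 with the combination, or 2.82-fold lower (log2 interval -1.80 to -1.21). Ccl24, an eosinophil chemokine made by alternatively activated macrophages, was at 116 and 40.0 (-1.53, -1.63 to -1.44). Both ratios lay outside 2-fold over their whole counting interval. Igf1, a growth factor, was at 34.4 and 14.2 (-1.28), Gas6, a ligand of TAM receptors that bridges to dying cells, from 1838 and 592 UMIs (-1.14), and Cbr2, a carbonyl reductase of resident macrophages, at 24.7 and 9.44 (-1.38). Slco2b1, an organic anion transporter, was at 7.19 and 2.91 (-1.30), and Ch25h, which makes 25-hydroxycholesterol, at 26.2 and 12.1 (-1.11). P3h2, a prolyl hydroxylase of collagen, had the lowest ratio of the named genes, at 7.22 and 1.49 (-2.26, -2.77 to -1.82). The remaining genes named as lowest, like P3h2 not among these 7, were the transcription factor Etv1 (-1.25) and the elastase Cela1 (-1.11).

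The 7 belong to a wider group of 27 resident and alternative activation genes that was put together after values were seen. Of 22 with enough UMIs, 7 were at least 2-fold lower and 1 lay above 0 (Mgl2, 0.26), with a median of -0.61 against -0.04 for all tested genes of the class. All 7 are among the genes already named as lowest, and among the other 15 none was past 2-fold and the median was -0.35. With ADU-S100 alone the median of this group was -0.48. Cbr2 and Slco2b1 were lower at both settings, at -1.17 and -1.49 for ADU-S100 against untreated, whereas Ccl24 was at 0.38 there.

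**Figure D3:**
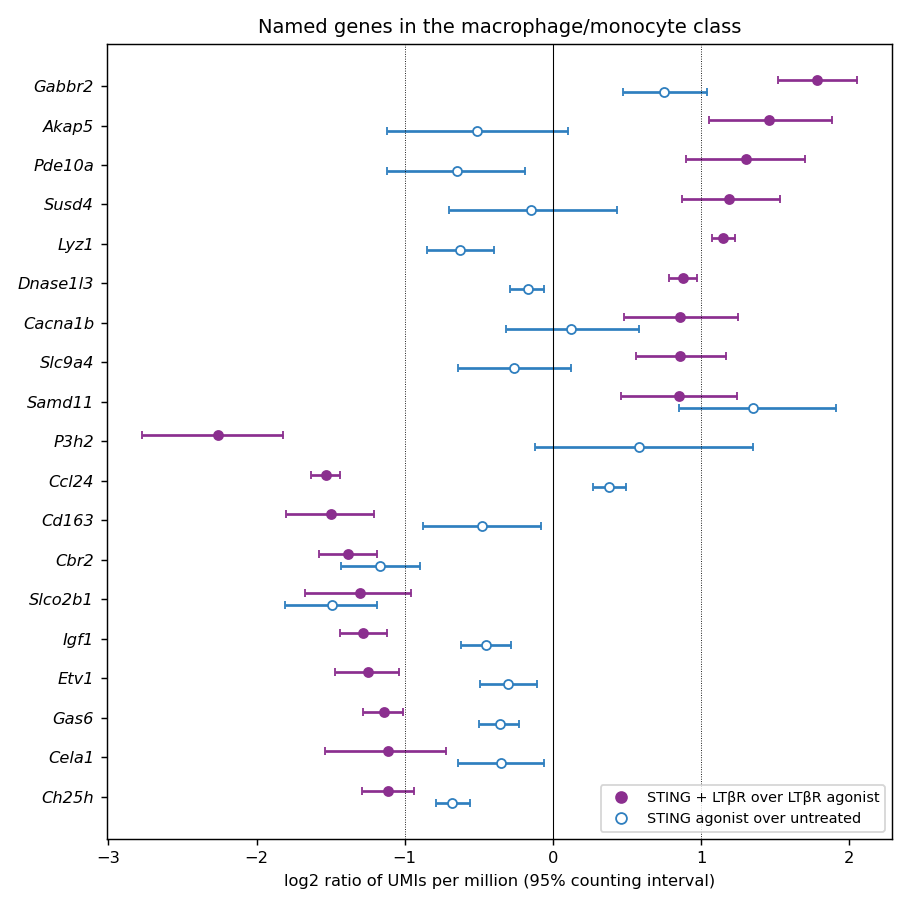
Log2 ratio of CPM with its 95% counting interval (horizontal axis) for the genes reported for the macrophage/monocyte class, filled points for combination over LTβR agonist and open points for ADU-S100 over untreated; dotted lines mark 2-fold. P3h2 (-2.26), Ccl24 (-1.53) and Cbr2 (-1.38) lie at the low end with the LTβR agonist present, and Ccl24 is at 0.38 without it.

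The genes named as highest in macrophages and monocytes were again mostly low. Gabbr2 was at 4.09 CPM with the LTβR agonist and 14.1 with the combination (1.78, 1.52 to 2.05). Lyz1 was at 45.0 and 99.9 (1.15, 1.07 to 1.23), and Dnase1l3, a secreted nuclease that degrades extracellular chromatin, at 38.0 and 69.9 (0.88, 0.78 to 0.97). Lyz1 stood lower, at -0.63, with ADU-S100 alone. Akap5, a scaffold for protein kinase A, was at 1.83 and 5.04 CPM (1.46), Pde10a, a phosphodiesterase, at 2.02 and 4.97 (1.30) and Susd4, a complement regulator, at 2.98 and 6.83 (1.19). Cacna1b, Slc9a4 and Samd11 lay between 0.85 and 0.86, and Slc9a4 changed sign to -0.19 when cells were thinned.

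The C1q macrophage list divided. C1qa, C1qb and C1qc, the subunits of the complement starter C1q, were higher at 0.30, 0.24 and 0.24, and so was Apoe, an apolipoprotein, at 0.35. Folr2 (-0.74), Stab1 (-0.62), Selenop (-0.57), Mrc1 (-0.34) and the transcription factor Maf (-0.79) were lower. Maf was at 167 CPM with the LTβR agonist and 96.5 with the combination, with an interval from -0.85 to -0.73. Of 16 tested members 4 lay above 0, 1 was at least 2-fold lower, and the median was -0.15. The monocyte list had a median of -0.23, with 3 of 15 above 0. F13a1, factor XIII A of monocytes and macrophages, was at 682 and 431 (-0.66, -0.69 to -0.63), and Ccr2, the receptor that brings monocytes out of the marrow, at 643 and 514 (-0.32, -0.35 to -0.29).

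The ligands of CCR2 were lower together in macrophages and monocytes. Ccl2 was at 359 CPM with the LTβR agonist and 229 with the combination (-0.65, -0.69 to -0.61). Ccl7 was at 301 and 155 (-0.96, -1.01 to -0.91), and Ccl12 at 344 and 218 (-0.66, -0.70 to -0.62). None was past 2-fold, and each was below the 5th percentile of the class (-0.32). Ccl8 was lower as well, at 402 and 224 (-0.85, -0.89 to -0.80), as were Il6 (-0.50) and Nos2, the inducible nitric oxide synthase (-0.49). Il1b, an inflammasome cytokine, was nearly equal at 4950 and 4914 (-0.01, -0.02 to -0.00). The inflammatory list had 5 of 22 members above 0 and a median of -0.16. With ADU-S100 against untreated its median was 1.33 in the same class, with Il6 at 2.35, Tnf at 1.94 and Il1b at 1.31. Neutrophil markers summed over 9 genes moved with that comparison, at 156 and 911 CPM in the class, against 292 and 331 with the LTβR agonist present, and their part was not tested.

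Il12b, the p40 subunit of IL-12 and IL-23, was the inflammatory gene past 2-fold. It was at 3.20 CPM with the LTβR agonist and 16.3 with the combination (2.34, 2.07 to 2.63), from 133 and 481 UMIs. A UMI of it was present in 0.570 and 0.994% of the class, and 1 cell held 21.1 and 11.2% of its UMIs. Cells outside the class carried more of it in the combination library, at 53.6 CPM, so the rule for named genes passed it over. Over all cells Il12b was at 15.0 and 30.8 (1.04, 0.92 to 1.15). Its level thus differed in both cuts, and it rested on few cells.

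Interferon-stimulated genes, the usual readout of STING, did not stand higher in macrophages and monocytes when ADU-S100 was added. None of 42 members reached 2-fold, 4 lay above 0, and the median was -0.15. The tumors were taken weeks after the injection of ADU-S100, and levels soon after it were not measured in these libraries. Isg15 was at 452 CPM with the LTβR agonist and 419 with the combination (-0.11, -0.14 to -0.08), Rsad2, which encodes viperin, at 189.7 and 129.6 (-0.55) and Ifi44 at 21.4 and 27.7 (0.38). Interferon-γ and GBP genes had a median of -0.07, with 8 of 19 above 0. Cxcl9, the interferon-γ chemokine for CXCR3+ T cells, was at 529 and 597 (0.17, 0.15 to 0.20) and Cxcl10, its relative, at 354 and 269 (-0.39, -0.43 to -0.36). MHC class I presentation genes had a median of -0.05. Of the receptors and transducers, Sting1 was at 83.1 and 83.2 (0.00, -0.07 to 0.08) and Ltbr at 47.2 and 40.7 (-0.21, -0.32 to -0.11). The lists of STING pathway genes and of lymphotoxin and noncanonical NF-κB genes had medians of -0.04 and -0.02.

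Cell cycle genes were slightly higher in macrophages and monocytes, with 15 of 18 above 0 and a median of 0.25. Mki67, which marks cycling cells, was at 55.7 and 72.4 CPM (0.38, 0.29 to 0.46), and Top2a, the topoisomerase of dividing cells, at 46.1 and 61.1 (0.40, 0.31 to 0.50). The median of the list was -0.03 with all deposited barcodes, so its sign depended on the limits set on barcodes. With ADU-S100 alone it was -1.10.

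**Figure D4:**
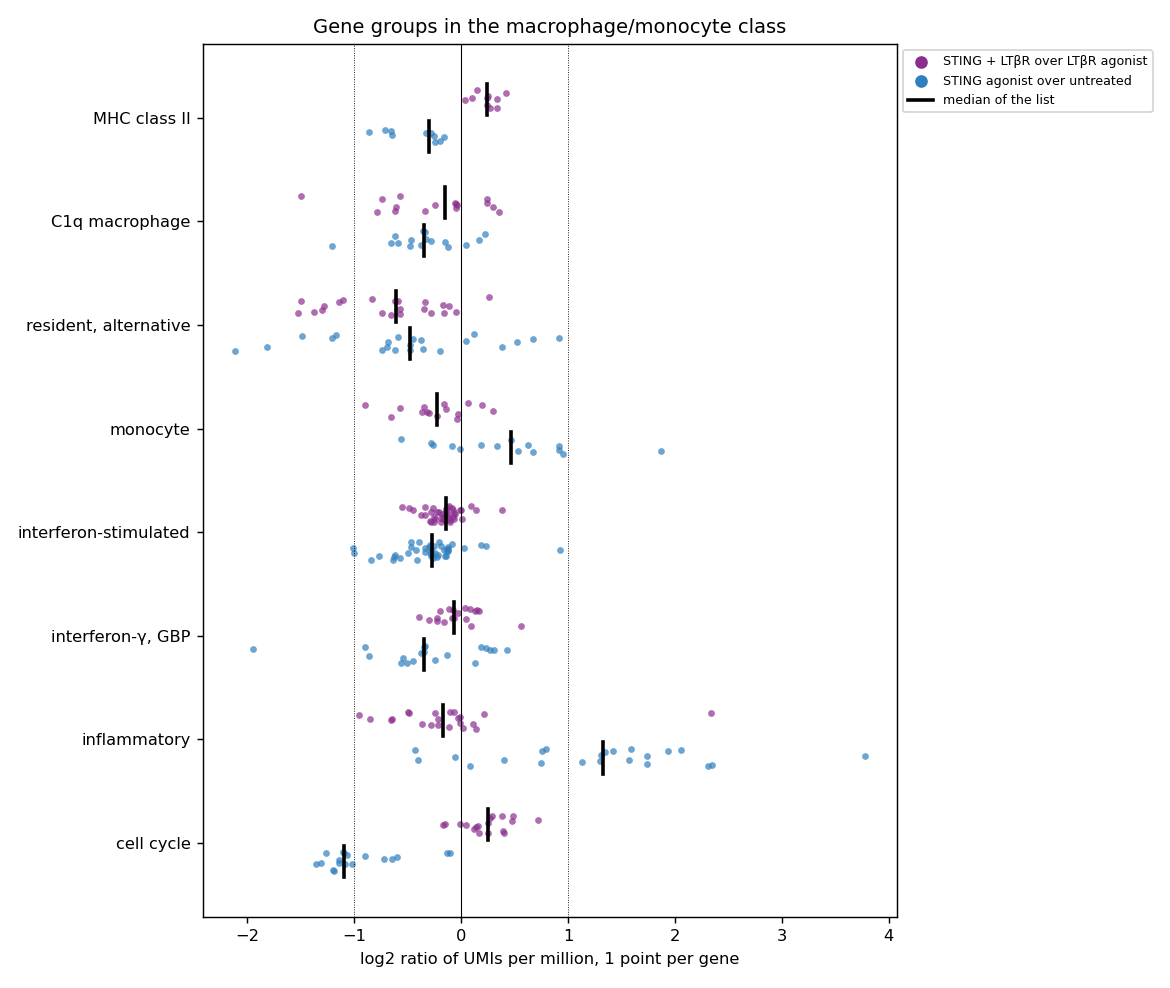
Log2 ratio of CPM (horizontal axis) for the genes of 8 groups in the macrophage/monocyte class, 1 point per gene with at least 200 UMIs, purple for combination over LTβR agonist and blue for ADU-S100 over untreated, with a black bar at the median. MHC class II has medians of 0.25 and -0.30, the inflammatory group -0.16 and 1.33, and cell cycle genes 0.25 and -1.10.

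Within the T class, 18 of 7065 genes were at least 2-fold higher with the combination (0.255%) and 18 at least 2-fold lower (0.255%), around a median of -0.04. CD8 genes took a larger part of the T class RNA. Cd8a was at 312 CPM with the LTβR agonist and 440.0 with the combination (0.49, 0.40 to 0.59) and Cd8b1, the other chain of the CD8 coreceptor, at 243 and 344 (0.50, 0.39 to 0.61). Cd4 was at 109.7 and 83.2 (-0.40, -0.61 to -0.19), and Trdc, the constant region of the γδ T cell receptor, at 89.7 and 65.2 (-0.46, -0.70 to -0.23). A Cd8a UMI was found in 36.5 and 48.2% of T class cells and a Cd4 UMI in 20.3 and 12.0%. The higher share for Cd8a came in the shallower library. These 4 genes belong to a lineage group put together after values were seen, in which 2 of 8 tested genes lay above 0. With ADU-S100 alone Cd8a was at -0.54 and Cd8b1 at -0.61.

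Klra1, Klra7, Klrb1c and Klra6, which encode Ly49 and related receptors, came first among the genes named as lowest in the T class. Klra1 was at 51.6 CPM with the LTβR agonist and 13.8 with the combination (-1.89, -2.40 to -1.44). Klra7 was at 117 and 36.7 (-1.67, -1.97 to -1.39), and Klrb1c, which encodes NK1.1, at 84.4 and 28.2 (-1.57, -1.93 to -1.25). Klra6, another Ly49 gene, was at 32.8 and 12.8 (-1.34). All 4 were more than 2-fold lower, and the share of T class cells with a Klra7 UMI was 17.0 and 4.52%. The other 7 NK receptor genes with at least 200 UMIs in the class did not reach 2-fold. Klrd1, the CD94 chain, was at 379 and 352 (-0.11, -0.21 to -0.01) and Klre1 at 134 and 142 (0.08, -0.09 to 0.24). Of 11 NK receptor genes tested in the class, 4 were at least 2-fold lower, 3 lay above 0 and the median was -0.19. Among those with too few UMIs to be tested, Ncr1 had 122 and 14 UMIs (-1.85, -2.81 to -1.10), and Klra5, Klra8, Klra9 and Klrb1f lay between -2.21 and -1.52. Klra8, the lowest, rests on 59 and 5 UMIs, of which 1 cell held 44.1 and 60.0%. The other 4 of these genes, Klra3, Klra4, Klrb1a and Klri1, lay between -0.82 and -0.22. The ratio went the other way with ADU-S100 alone, where Klra1, Klra7 and Klrb1c were at 1.33, 1.19 and 1.01. The summed level of 5 NK markers in the T class, Klrb1c among them, was 299.7 and 221 CPM, and the part of NK cells in the class was not tested.

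Il1rl1, the IL-33 receptor of type 2 lymphocytes and regulatory T cells, had 364 UMIs with the LTβR agonist and 61 with the combination (log2 ratio of levels -1.34, -1.77 to -0.96). Gata3, the transcription factor of the Th2 lineage, was at 83.5 and 58.0 (-0.52, -0.78 to -0.28). The Th2 and IL-17 list had 2 of 7 tested genes at least 2-fold lower and a median of -0.46. Il13 was among them (-2.28), but 1 cell held 39.0 and 54.1% of its UMIs. Il17a was at 0.58, with 28.0 and 66.7% of UMIs in 1 cell, and its sign changed among the alternatives, so no direction is read for it. The genes Nebl (-1.10), Cpm (-1.09), Slc14a1 (-1.07), Clnk (-0.99) and Itga2 (-0.97) completed the 10 named as lowest, of which Clnk encodes an adaptor of immune receptors and Itga2 the integrin α2 chain, CD49b.

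Checkpoint and exhaustion genes, which mark chronically stimulated T cells, stood higher, with 11 of 14 above 0, none by 2-fold, and a median of 0.30. Pdcd1, which encodes PD-1, was at 196 CPM with the LTβR agonist and 306 with the combination (0.64, 0.52 to 0.76), and was detected in 27.2 and 35.0% of T class cells. Nr4a2, a nuclear receptor induced by T cell receptor signals, was at 252 and 347 (0.46), and Havcr2, which encodes TIM-3, at 157 and 209.7 (0.42). Havcr2 is also a myeloid gene, at 247 CPM outside the T class in the combination library. Tigit (0.37), Tox (0.36) and Lag3 (0.31) were higher too, while Cd244a (-0.47) was lower. Cd160 was at -0.55 but at 0.41 after thinning. The median with ADU-S100 alone was -0.41. Cd8a and Cd8b1 moved with the list, at 0.49 and 0.50 here and at -0.54 and -0.61 with ADU-S100 alone. The part of this shift in T cell genes was not tested.

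Effector genes were mixed. Ifng was at 154 CPM with the LTβR agonist and 206 with the combination (0.42, 0.28 to 0.56), Ccl5 at 1601 and 2062 (0.36, 0.32 to 0.41), Nkg7, a granule protein, at 1153 and 1418 (0.30, 0.24 to 0.35) and Prf1 at 427 and 488 (0.19, 0.10 to 0.28). Gzmb was lower at 455 and 342 (-0.41, -0.51 to -0.31). The cytotoxic and effector list had 8 of 17 above 0, 1 at least 2-fold lower (Gzmc, of which 1 cell held 43.1% of LTβR agonist UMIs) and a median of -0.11. The lower level of Prf1 over all cells was thus not found within the T class. Gzma stood at 153 and 171 there, but 1 cell held 50.5% of its combination UMIs and its sign changed among the alternatives, so no direction is read for it.

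The regulatory T cell list had 3 of 10 tested genes above 0, none past 2-fold in either direction, and a median of -0.13 against -0.04 over the class. Foxp3, the transcription factor of the lineage, was at 37.6 CPM with the LTβR agonist and 22.6 with the combination (-0.72, -1.14 to -0.35), and Ikzf2, which encodes Helios, at 737 and 502 (-0.55, -0.64 to -0.47). Il2ra, the high-affinity IL-2 receptor chain, was at 207 and 149.7 (-0.46, -0.62 to -0.31). Ccr8, a chemokine receptor of tumor regulatory T cells, went the other way, at 32.9 and 51.1 (0.64, 0.33 to 0.93). Nrp1 (0.22), Tnfrsf18 (-0.02) and Capg (-0.03) lay near 0 or above. The follicular helper list, of genes for T cell help to B cells, had 2 of 7 above 0 and a median of -0.05, close to that of the class. Its members ranged from Cd40lg at 39.7 and 23.9 (-0.72, -1.12 to -0.35) and Bcl6 at 58.4 and 38.0 (-0.62, -0.93 to -0.32) to Btla (0.29) and Tox2 (1.00), with Icos at -0.05.

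Ccr7, the receptor that guides naive T cells to CCL19 and CCL21, was at 80.9 CPM with the LTβR agonist and 144 with the combination (0.83, 0.65 to 1.02). It had the highest ratio of the naive and memory list, where 4 of 12 lay above 0 and the median was -0.01. Tcf7 was at 324 and 279 (-0.21, -0.33 to -0.10). With ADU-S100 alone this list had a median of 0.70, with Ccr7 at 1.06. The genes named as highest in the T class began with Atp2b2, a plasma membrane calcium pump, at 18.1 and 45.5 (1.33, 0.98 to 1.69), Smyd1, a histone methyltransferase, at 24.2 and 50.5 (1.06, 0.73 to 1.38) and Tox2, a relative of Tox, at 17.2 and 34.4 (1.00, 0.61 to 1.38). Tox2 changed sign to -0.42 when cells were thinned. Zc3h12c, Zbtb32, Adgrg1, Igfbp4, Tmem273 and Ypel2 lay between 0.71 and 0.84. Interferon-stimulated genes had a median of -0.03, with 13 of 37 above 0.

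RNA of other cells in the T class differed between the libraries. B and plasma markers summed to 156 CPM with the LTβR agonist and 418 with the combination, with Jchain at 131 and 349.9 and Mzb1 at 9.81 and 45.9. Neutrophil markers summed to 295 and 655, with S100a8 at 85.6 and 303. Macrophage/monocyte markers were alike, at 1984 and 2034. The plasma cell and neutrophil genes among the 18 called as higher are therefore not described as T cell genes, and their part in other values of the class was not tested.

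**Figure D5:**
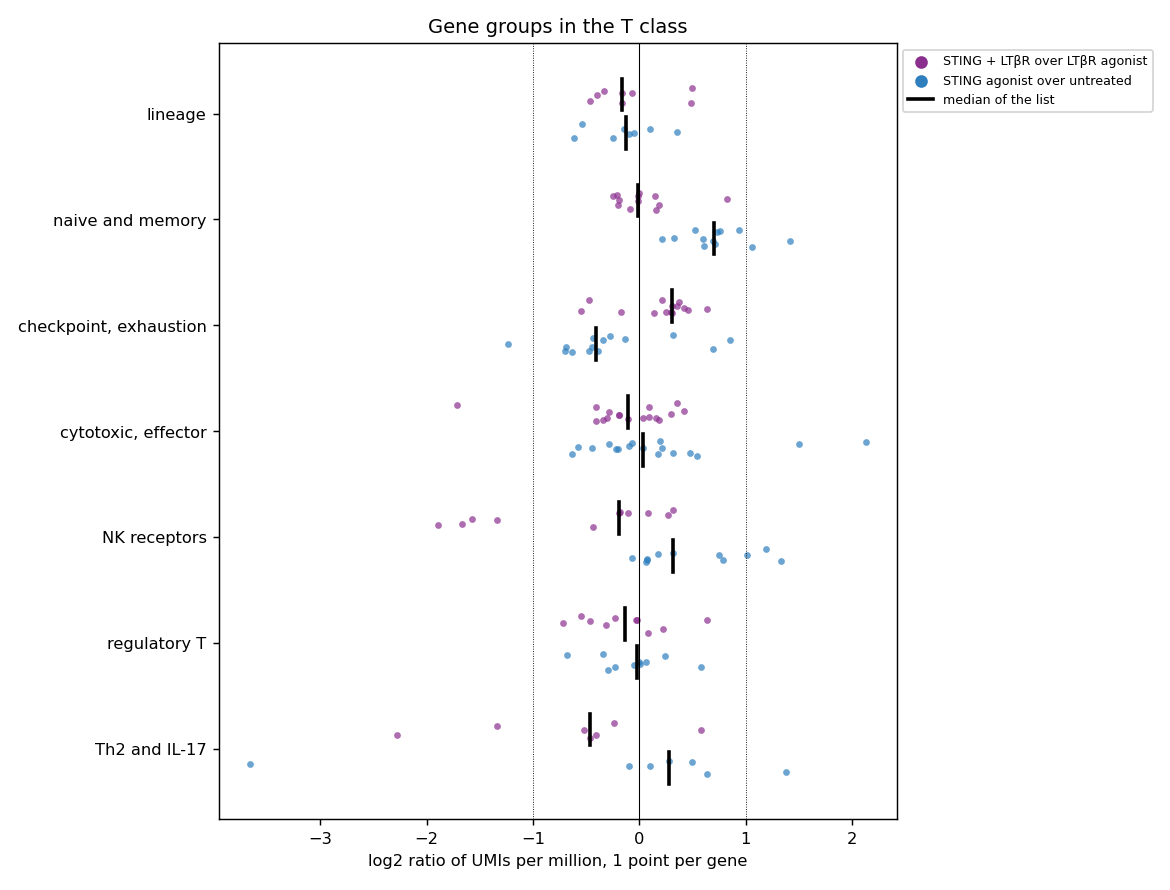
Log2 ratio of CPM (horizontal axis) for the genes of 7 groups in the T class, 1 point per gene with at least 200 UMIs, purple for combination over LTβR agonist and blue for ADU-S100 over untreated, with a black bar at the median. Checkpoint and exhaustion genes have medians of 0.30 and -0.41, naive and memory genes -0.01 and 0.70, and 4 NK receptor genes lie below -1 with the LTβR agonist present.

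Within B and plasma cells, 9 of 4392 genes were at least 2-fold higher with the combination (0.205%) and 5 at least 2-fold lower (0.114%), around a median of -0.01. Most of the called genes belong to macrophages and neutrophils, such as Ccl2, Ccl7, Retnla and S100a8, and without cells that met more than 1 class rule the counts were 19 and 1. H2ac8, a histone H2A gene, was at 30.3 CPM with the LTβR agonist and 61.0 with the combination (1.01, 0.62 to 1.41), and H4c4, a histone H4 gene, at 87.7 and 143 (0.71, 0.47 to 0.95). Lars2, a mitochondrial tRNA synthetase, was at 6863 and 10063 (0.55, 0.53 to 0.58) but at 0.02 after thinning. Bach2, a transcription factor that holds back plasma cell differentiation, was at 196 and 282 (0.52, 0.36 to 0.69). Smarcb1, Plp2, Ypel2 and Mea1, also named as highest, lay between 0.52 and 0.56, and Plp2 and Ypel2 changed sign to -0.47 and -0.70 after thinning.

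Several genes of B cells rather than plasma cells were lower. Fcrl5, an Fc receptor-like protein of B cells, was at 92.0 CPM with the LTβR agonist and 47.4 with the combination (-0.95, -1.28 to -0.64). Siglecg, an inhibitory lectin of B cells, was at 90.2 and 53.8 (-0.74, -1.05 to -0.44), and Sox5, a transcription factor, at 344 and 202 (-0.77, -0.93 to -0.62). Bcl11a, a transcription factor of early B cells, was at 95.2 and 59.9 (-0.67). The follicular and naive B cell list had 3 of 14 above 0 and a median of -0.15, with Ms4a1, which encodes CD20, at 321 and 259 (-0.31), Cd22 at 124 and 91.0 (-0.44) and Ly6d at 337 and 446 (0.40). Tmx4 was lowest at 79.9 and 29.9 (-1.41), with 19.6% of its LTβR agonist UMIs in 1 cell. Pkd2l2, Slc15a2, Pard3b, Ncapg2 and Fam169b lay between -0.77 and -0.64.

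Plasma cell genes took a similar part of the RNA of the class in both libraries. Their median was -0.07, with 7 of 20 above 0 and none past 2-fold. Mzb1, a chaperone of antibody assembly, was at 3222 and 3224 CPM (0.00, -0.04 to 0.04), Sdc1, which encodes CD138, at 157 and 162 (0.05, -0.15 to 0.24), Xbp1, the transcription factor of secretory expansion, at 2088 and 1989 (-0.07) and Jchain, the joining chain of IgM and IgA, at 22413 and 19610 (-0.19, -0.21 to -0.18). The secretory and unfolded protein response list had a median of 0.00, with 9 of 18 above 0. Memory and germinal center lists had medians of 0.03 and 0.03 on 6 and 4 tested genes. MHC class II genes had a median of 0.22 in this class, with 7 of 9 above 0, which turned to -0.21 after thinning.

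Immunoglobulin heavy chains were given apart, since they are left out of the totals and the calls. Over all cells the 8 constant genes lay above 0, with a median of 0.59. Ighm was at 2694 CPM with the LTβR agonist and 4789 with the combination (0.83, 0.82 to 0.84), Ighg2b at 1295 and 2400 (0.89, 0.88 to 0.90), Ighg1 at 3933 and 4573 (0.22, 0.21 to 0.23) and Igha at 1244 and 1594 (0.36, 0.34 to 0.37). These moved with the larger B and plasma share. An Ighg2b UMI was found in 3.07 and 26.4% of all cells and an Ighm UMI in 33.3 and 41.1%, more than the share of the B and plasma class, so levels over all cells include heavy-chain RNA from barcodes outside the class, and the part of free RNA was not tested. Within the B and plasma class the order was different. Ighm (0.36, 0.35 to 0.37) and Ighg2b (0.41, 0.39 to 0.42) stayed higher, at 59656 and 76491 and at 30160 and 40003 CPM. Ighg1 was lower, at 87797 and 74813 (-0.23, -0.24 to -0.22), as were Ighg2c, at 60160 and 44793 (-0.43, -0.44 to -0.41), and Igha, at 27408 and 25314 (-0.11, -0.13 to -0.10). The sign of Igha changed among the alternatives. Ighg3 had the largest ratio (2.64, from 1396 and 8197 UMIs), but 1 cell held 96.1% of its UMIs with the LTβR agonist and 45.3% with the combination. Ighe (2.22) rested on 52 and 230 UMIs, with 46.2 and 23.9% in 1 cell. In both libraries 1 cell thus held a large part of the UMIs of these isotypes.

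The effect of ADU-S100 with and without the LTβR agonist can be compared, since the 2 comparisons share no library. Across the genes tested in both, the log2 ratios had a Pearson r of 0.19 and a Spearman rho of 0.21 over all cells (11966 genes), -0.04 and -0.07 in the T class (6433), 0.10 and 0.14 in the B and plasma class (750) and -0.03 and -0.01 in macrophages and monocytes (10401). These are descriptions across genes, which are not independent replicates and share library depth, and no p is given. Over all cells, 13 genes were at least 2-fold higher with and 423 without the LTβR agonist, and none in both, a count too small to read. At least 2-fold lower were 57 with and 931 without it, 21 of them in both. Another 5 genes were higher with and lower without it, and 5 the reverse. In the T class, of 6433 genes, 14 were higher and 10 lower with the LTβR agonist and 76 and 45 without it. There 3 genes were higher in both and 1 lower in both, while 3 and 4 went in opposite directions, counts too small to read. Called genes were fewer in the presence of the LTβR agonist in every cut. Beside these counts, neutrophil markers over all cells stood at 1219 CPM untreated and 12375 with ADU-S100 alone, and at 57.7 and 1406 in the T class, while the median share of ribosomal protein UMIs was 8.84 and 3.70%. The same values were 2512 and 2462 CPM, 295 and 655 CPM, and 8.38 and 7.80% with the LTβR agonist, and their part in the counts was not tested. In macrophages and monocytes the called genes were 18 and 15, against 254 (2.41%) and 223 (2.12%) of 10542 without the LTβR agonist. In the T class they were 18 and 18, against 79 (1.22%) and 50 (0.770%) of 6492. The B and plasma class without the antibody had 19 (2.53%) and 5 (0.667%) of 750 genes, from few cells.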

How the data were processed

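Live CD45+ cells of pooled KPC tumors were sequenced with a 10x 5′ kit, and the authors deposited filtered matrices of UMI counts per gene and barcode, not normalized. Mouse mm10 is the build per the labels. Cell Ranger 7.1.0 is named per the labels and 8.0.1 in the file headers, so the version that made the counts is unsure. The deposited features and barcodes pair 33696 identifiers with symbols.

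Barcodes were kept by the limits of the study's methods. Counts were summed per library and class in Python 3.11.15 with numpy 2.4.6, and levels are CPM (UMIs per 1000000) without 390 immunoglobulin genes, with 0.5 UMI added to each sum for ratios. Fold intervals are exact binomial, share intervals exact Clopper-Pearson and share ratio intervals log-normal, all at 95% from scipy 1.17.1. They cover counting error only, and their width follows the depth of each sum. With 1 library per group there was no test, and called means at least 2-fold with at least 200 UMIs over both libraries. The log2 ratio, its interval and the 2-fold call were tried on simulated library sums with known ratios.

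The named genes were, per population, the 10 with the highest and the 10 with the lowest ratio among these. The rule left out immunoglobulin, T cell receptor segment, mitochondrial, ribosomal, hemoglobin, sex-linked and predicted genes, genes with over 20% of UMIs in 1 cell of the library where they were higher, and, in a class, genes higher outside it. The classes, the 24 gene lists and the groups described as put together after values were seen were all chosen with earlier results of these data known. Of the list genes, 1 was not found. Some genes chosen by the rule or held by the lists are not reported here.

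Doublets were not removed in the values reported. Scrublet in scanpy 1.11.5 called 1 and 0 barcodes by its automatic threshold, so its 857 and 1066 highest-scoring barcodes were left out as an alternative. The other alternatives were no minimum or at least 50 UMIs, all deposited barcodes, cells of 1 class only, 1000 UMIs per cell, immunoglobulin genes in the total, centering on the median gene, equal weight per cell, no shared barcodes and no cells under 5% ribosomal protein UMIs. Promoter sequences are from RefSeq, build GRCm38.p6.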

Additional observations from a re-analysis of the deposited data

Results flagged for a closer look

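The following genes were past 2-fold in opposite directions when ADU-S100 was given with and without the LTβR agonist. With 1 library per group, these differences were not tested. In the T class, Klra1 was at -1.89 on the log2 scale with the LTβR agonist and 1.33 without it, Klra7 at -1.67 and 1.19, and Klrb1c at -1.57 and 1.01. All 3 are receptors of NK cells and some T cells. Atp2b2, the calcium pump, was at 1.33 and -1.57 in the same class.

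In B and plasma cells, the histone gene H2ac8 was at 1.01 with the LTβR agonist and -2.16 without it, where the class held 62 and 51 cells. Over all cells, Aqp1, a water channel, was at 1.15 and -1.21, and Stfa1, a stefin, at -1.46 and 2.83. Aqp1 moved to 0.13 with all deposited barcodes and to 2.70 after thinning, and Stfa1 moved to -0.03 without cells of few ribosomal protein UMIs.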

How the results depend on the processing

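All 80 named genes kept their sign under every alternative but thinning to 1000 UMIs per cell, and 76 kept it there, the exceptions being Tox2, Plp2, Ypel2 in B and plasma cells and Slc9a4. Of 47 past 2-fold, 33 stayed so under every alternative but thinning. Counts below are genes at least 2-fold higher and lower. With no minimum of UMIs they were 2145 and 2723 over all cells, 2191 and 1586 in T, 2276 and 2007 in B and plasma, and 2462 and 2461 in macrophages and monocytes. With at least 50 UMIs they were 88/195, 71/88, 58/25 and 94/50 in the same order. After thinning, which left 9154, 1103, 237 and 5514 genes to test, they were 8/20, 2/0, 0/1 and 7/8. With all deposited barcodes, 11 were higher over all cells, 4 higher and 8 lower in B and plasma cells, and 28 and 25 in macrophages and monocytes. With equal weight per cell, 32 were higher over all cells, 3 higher and 13 lower in B and plasma cells, and 28 higher in macrophages and monocytes. Without cells under 5% ribosomal protein UMIs, 43 were lower over all cells and 3 in B and plasma cells. In B and plasma cells, 5 were higher without the highest Scrublet scores, and 19 higher and 1 lower without cells of more than 1 class.

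Pearson r between the comparisons with and without the LTβR agonist became 0.05, 0.11 and 0.13 over all cells with no minimum, at least 50 UMIs and thinning. In T it became 0.02 with no minimum and -0.23 without the highest Scrublet scores. In B and plasma cells it was 0.02 with no minimum, 0.18 with all deposited barcodes, 0.04 without the highest scores, 0.29 without cells of more than 1 class, -0.46 after thinning, 0.16 with equal weight and -0.02 without cells of few ribosomal UMIs. In macrophages and monocytes it was 0.08 after thinning. The share ratio became 0.687 (thinned) and 0.610 (ribosomal limit) for T, 1.47 (thinned) for B and plasma, and 1.07 (thinned, reversed) and 0.995 (ribosomal limit) for macrophages and monocytes. The cause of these shifts was not tested, apart from the fewer genes tested after thinning. With 1 library per group, differences between mice, sorts and library preparations cannot be told apart from treatment, and the lower depth of the combination library limits genes under 200 UMIs. No paired analysis was possible because each group has 1 library.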

Other observations

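Some genes of mature dendritic cells stood higher within the macrophage/monocyte class of the combination library, in a group put together after values were seen. Fscn1, the actin bundler of mature dendritic cells, was at 4.86 CPM with the LTβR agonist and 8.86 with the combination (log2 ratio 0.87, 0.60 to 1.14). Ccr7 was at 18.2 and 27.4 (0.59, 0.45 to 0.74). Cells outside the class carried more of both in the combination library, at 67.0 CPM for Fscn1 and 121 for Ccr7. Cd86, a costimulatory ligand for CD28, was at 1051 and 1239 (0.24, 0.22 to 0.26), while Cd40 was nearly equal at 91.0 and 91.5 (0.01, -0.06 to 0.08). Of the 20 tested genes of this group, 11 lay above 0, Il12b alone was past 2-fold (2.34) and the median was 0.04. Cd209a, a lectin of monocyte-derived dendritic cells, was lower at 25.5 and 17.5 (-0.54, -0.70 to -0.39). Flt3 (-0.20), Zbtb46 (-0.24) and Clec9a (0.22), other dendritic cell genes, had intervals that included 0. The summed level of 8 dendritic cell markers, Fscn1 and Ccl22 among them, was 74.5 and 81.3 CPM in the class and 182 and 147 over all cells.

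Among 18 tested chemokines of the same class, also put together after values were seen, Ccl22, a ligand of CCR4, was at 15.3 and 27.4 (0.84, 0.69 to 0.99) but at 0.14 after thinning. Ccl17, the other CCR4 ligand, was at 82.3 and 103 (0.33, 0.26 to 0.40) and Cxcl11, a CXCR3 ligand, at 28.3 and 17.1 (-0.73, -0.89 to -0.58). Ccl24 alone was past 2-fold, 6 lay above 0 and the median was -0.13. Replication-dependent and variant histone genes in B and plasma cells, a group put together around H2ac8 and H4c4 after values were seen, had 6 of 7 tested members above 0 and a median of 0.29. Without H2ac8 and H4c4 the values were 4 of 5 and 0.13, with H1f4 at 214 and 262 (0.29, 0.13 to 0.45) and H3f3b at 1472 and 1282 (-0.20, -0.26 to -0.13).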
